A study of Homo sapiens with 156 samples.

Results

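ZNF595 and 5 of its neighbours lie along the end of the short arm of human chromosome 4, and the RNA of all 6 was followed in leukemia cells treated with inhibitors of DNA methylation. The 6 genes, of 59939 in the deposited tables, were ZNF595, ZNF718, ZNF732, ZNF141, ZNF721 and PIGG. The 5 neighbours were taken by their position beside ZNF595, with earlier results of these data known. ZNF595 itself was chosen by its measured increase with GSK032 at 400 nM on day 4. ZNF595 comparisons that use either set of libraries of that choice, GSK032 at 400 nM or DMSO of day 4, are therefore given as a description with no test, while day 4 libraries of other doses and agents were tested against each other. The neighbours were tested throughout, apart from ZNF732, whose levels were too low. The question asked was whether they share the response of ZNF595.

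The libraries came from MV411, THP1 and NOMO1, 3 human acute myeloid leukemia cell lines that carry a rearranged KMT2A gene. GSK032 (GSK3685032), a DNMT1 inhibitor, and DAC (decitabine) were followed over days 1, 2, 4 and 6 at a dose of 400 nM. On day 4 each was also tried at 3.2, 16, 80, 2000 and 10000 nM. Cells on GSK862 (GSK3484862, 1000 nM) and GSK477 (GSK3510477, 10000 nM) were harvested on days 2 and 4, and those on DMSO, the solvent, on all 4 days. Each of the 78 combinations of line, agent, dose and day had 2 libraries, 156 in all.

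DNMT1 copies cytosine methylation onto newly made DNA at CG pairs, and decitabine enters DNA and traps the enzyme, so that methylation is diluted as cells divide. Genes with a methylated promoter can become expressed in such cells. ZNF595, ZNF718, ZNF732, ZNF141 and ZNF721 encode C2H2 zinc finger proteins, most of which in this family carry a KRAB domain, which recruits the corepressor TRIM28 to DNA. PIGG encodes an enzyme of another kind, which adds an ethanolamine phosphate to the glycosylphosphatidylinositol (GPI) anchor of cell surface proteins.

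In hg38 with the GENCODE 29 annotation, ZNF595 (ENSG00000272602) spans chr4:53285-88211 on the plus strand. ZNF718 (ENSG00000250312, chr4:124480-202303, plus strand) begins 36.3 kb beyond its end, followed by ZNF732 (ENSG00000186777, chr4:270675-305321, minus strand) and ZNF141 (ENSG00000131127, chr4:337814-384864, plus strand). ZNF721 (ENSG00000182903, chr4:425815-499156, minus strand) and PIGG (ENSG00000174227, chr4:499210-540196, plus strand) start back to back.

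Promoter sequences from RefSeq (GRCh38.p14), 250 bases before to 50 bases after the start, were held for 3 of the 6 genes. They are shown because CG pairs, written in capitals, are the sites that DNMT1 maintains. The window of ZNF595 is chr4:53071-53370, that of ZNF718 chr4:127871-128170 and that of ZNF141 chr4:337564-337863, all on the plus strand. The ZNF718 window follows a RefSeq start that lies inside the GENCODE gene.
ZNF595: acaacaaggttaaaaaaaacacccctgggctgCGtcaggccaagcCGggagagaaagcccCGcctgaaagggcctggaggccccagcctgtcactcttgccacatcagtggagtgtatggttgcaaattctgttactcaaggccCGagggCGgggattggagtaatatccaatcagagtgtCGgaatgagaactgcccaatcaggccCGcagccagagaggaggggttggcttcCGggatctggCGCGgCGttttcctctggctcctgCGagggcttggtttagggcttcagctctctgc
ZNF718: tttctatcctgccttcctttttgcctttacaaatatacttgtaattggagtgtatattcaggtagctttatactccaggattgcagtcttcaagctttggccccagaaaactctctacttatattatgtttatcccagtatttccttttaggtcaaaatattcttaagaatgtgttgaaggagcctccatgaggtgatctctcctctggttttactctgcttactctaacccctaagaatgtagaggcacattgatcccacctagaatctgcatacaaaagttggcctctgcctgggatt
ZNF141: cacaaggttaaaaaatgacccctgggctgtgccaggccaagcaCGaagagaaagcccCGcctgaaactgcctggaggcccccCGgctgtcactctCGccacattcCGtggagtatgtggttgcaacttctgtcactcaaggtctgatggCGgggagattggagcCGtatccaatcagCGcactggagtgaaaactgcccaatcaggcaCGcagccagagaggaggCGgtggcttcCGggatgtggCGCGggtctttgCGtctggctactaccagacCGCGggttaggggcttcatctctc

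The ZNF595 window held 12 CG pairs, a number reached by 53.1% of 35116 RefSeq promoters (1 chromosome left out), in which the median was 14. Its ratio of observed to expected CG was 0.480 at a GC content of 58%. ZNF141 had 16 CG pairs, a ratio of 0.607 and a GC content of 59.3%, and 47.5% of promoters held as many. Aligned to each other, the ZNF595 and ZNF141 windows were identical at 248 of 293 bases (84.6%). The ZNF718 window held 0 CG pairs, whereas 96.0% of promoters held at least 1. That window begins at 127871, inside the GENCODE gene that starts at 124480, and the sequence at the GENCODE start was not examined. CG is its own reverse complement, so these counts are the same on both strands. Methylation was not measured in these libraries.

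Zinc finger genes share sequence, which can blur their levels. Of the 31-base stretches in its transcripts, ZNF595 shared 17.4% with another gene, at most 3.09% with any named one (ZNF141). ZNF718 shared 15.7% with other genes but 0.752% with ZNF595, ZNF141 shared 10.6%, ZNF732 17.2% and PIGG 0.371%. ZNF721 shared 34.1%, most of it (26.8%) with ABCA11P, a pseudogene that overlaps it, the largest share of the 6. The use of strand in counting is not given in the sources used here.

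Levels are given in FPKM, fragments scaled to transcript length and to library size, and the deposited files hold no counts. Depth is therefore unknown, and the 2 libraries of a group are the only measure of precision. Column sums ranged between 1330764 and 3073162 FPKM for MV411, between 1262720 and 2325206 for THP1, and between 1312157 and 2052119 for NOMO1. All 8 myeloid markers had a DMSO median of at least 1 FPKM in each line, while of 11 markers of other cell types 0 did in MV411, 1 in THP1 and 1 in NOMO1, and 5, 5 and 6 of the 11 had a median of 0 in those lines. Summed over the 11, treated MV411 libraries had 0.602 to 7.46 FPKM, against 0.736 to 1.54 in DMSO, treated THP1 libraries 1.68 to 34.7, against 1.78 to 2.72, and treated NOMO1 libraries 1.38 to 60.0, against 2.10 to 3.05. The summed myeloid markers ranged from 933 to 9674 FPKM in treated and 649 to 1968 in DMSO libraries of MV411, from 438 to 776 and 484 to 703 in THP1, and from 1956 to 8182 and 5749 to 7973 in NOMO1. Their part in the results below was not tested. In bulk libraries, fewer cells expressing a gene and less of its RNA per cell cannot be told apart.

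In DMSO, ZNF595 and ZNF732 were nearly silent while the other neighbours were expressed. Over the 8 DMSO libraries, the median of ZNF595 was 0.127 FPKM in MV411 (range 0.0955 to 0.270), 0.0963 in THP1 (0.0563 to 0.156) and 0.0815 in NOMO1 (0.0266 to 0.565). ZNF732 had medians of 0.0185, 0.133 and 0 FPKM in MV411, THP1 and NOMO1. PIGG was the highest of the 6 by median in each line, at 25.8 FPKM in MV411, 34.9 in THP1 and 23.9 in NOMO1. ZNF141 differed most between lines in its median, with 27.9 FPKM in THP1, 10.9 in MV411 and 1.47 in NOMO1. The tables were normalized line by line, so no test was made across lines.

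The order of the levels was distinct only in NOMO1. There the ranges of PIGG (21.4 to 26.3 FPKM), ZNF721 (9.82 to 14.0), ZNF718 (2.86 to 3.94), ZNF141 (1.103 to 2.252), ZNF595 and ZNF732 did not overlap. In MV411 ZNF141 (7.61 to 13.7), ZNF718 (9.28 to 11.4) and ZNF721 (3.58 to 10.4) overlapped below PIGG. In THP1 the ranges of PIGG (33.2 to 36.1), ZNF721 (25.4 to 36.9) and ZNF141 (25.2 to 28.6) overlapped in turn, above ZNF718 at 4.13 to 4.88 FPKM.

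ZNF595 rose in all 3 lines with both GSK032 and DAC at 400 nM, already on day 1 with DAC. Its change exceeded that of each tested neighbour on days 1, 2 and 6. ZNF595 was chosen for its rise in these lines and was nearly silent in DMSO. Both favour that order, which was not tested between genes. On day 4, where ZNF595 was chosen for its increase, its values are a description only. In MV411 on day 1 it had 2.65 and 3.93 FPKM with GSK032 and 3.38 and 3.64 with DAC, against 0.112 and 0.141 with DMSO. On day 2 it had 19.7 and 22.3 with GSK032 and 12.4 and 15.5 with DAC, against 0.101 and 0.270 with DMSO. On day 4 the values were 43.8 and 44.5 with GSK032 and 23.2 and 19.5 with DAC, against 0.105 and 0.176 with DMSO. Every treated library thus lay above every DMSO library, from day 1 on. On day 6 it had 28.5 and 29.2 with GSK032 and 22.1 and 27.0 with DAC, against 0.168 and 0.0955 with DMSO.

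Changes are given as the difference of log2(FPKM + 0.5) between group means, with its standard error (SE), so folds of nearly silent genes are understated. A gene was called where the Benjamini-Hochberg adjusted p over all genes tested was below 0.05 and the log2 change was at least 1 in size. In MV411 the log2 change of ZNF595 with GSK032 was 2.57, 4.98, 6.12 and 5.54 on days 1, 2, 4 and 6, with an SE of 0.18. With DAC it was 2.68, 4.40, 5.09 and 5.30. The day 6 changes had adjusted p = 3.44e-20 for GSK032 and 6.71e-19 for DAC. In each line ZNF595 passed the filter of 2 libraries at or above 1 FPKM only through treated libraries. Its DMSO libraries reached at most 0.270, 0.156 and 0.565 FPKM in MV411, THP1 and NOMO1. It was also chosen for its rise on day 4 in the same lines, so its p-values, here and below, are not independent support for a rise.

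In THP1 ZNF595 was called from day 1 with DAC and from day 2 with GSK032. It had 0.782 and 0.440 FPKM with GSK032 and 2.21 and 1.19 with DAC on day 1, against 0.156 and 0.0563 with DMSO. On day 2 it had 2.41 and 1.87 with GSK032 and 4.34 and 4.84 with DAC, against 0.0853 and 0.0875 with DMSO. The day 1 change with GSK032, 0.86 ± 0.24 (SE), was not called (adjusted p = 0.91), although its libraries did not overlap with DMSO. By day 4 the values were 14.2 and 11.2 with GSK032 and 13.4 and 15.2 with DAC, against 0.105 and 0.131 with DMSO. On day 6 they were 11.1 and 14.7 with GSK032 and 12.5 and 16.0 with DAC, against 0.146 and 0.0798 with DMSO. The log2 changes on days 2, 4 and 6 were 2.16, 4.41 and 4.44 with GSK032, and on days 1, 2, 4 and 6 they were 1.82, 3.12, 4.58 and 4.58 with DAC. Those of day 6 had adjusted p = 2.62e-14 and 3.59e-15.

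NOMO1 gave the largest day 6 values of the 3 lines. ZNF595 had 0.687 and 0.940 FPKM with GSK032 and 4.23 and 4.56 with DAC on day 1, against 0.195 and 0.0927 with DMSO. On day 2 it had 5.51 and 6.02 with GSK032 and 23.2 and 26.6 with DAC, against 0.0470 and 0.0266 with DMSO. DAC led GSK032 on both days with no overlap. On day 4 it had 28.9 and 33.0 with GSK032 and 54.2 and 54.4 with DAC, against 0.565 and 0.0703 with DMSO, the widest spread between DMSO libraries of this gene. On day 6 the values were 55.1 and 45.7 with GSK032 and 62.2 and 56.3 with DAC, against 0.0631 and 0.112 with DMSO. The log2 changes were 1.03, 3.54, 5.33 and 6.43 with GSK032 and 2.93, 5.56, 6.14 and 6.67 with DAC (SE 0.17), with adjusted p = 6.2e-22 and 9.46e-23 on day 6. The day 1 change with GSK032 (adjusted p = 0.00379) was 0.66 with a pseudocount of 1 and then not called.

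On day 6, ZNF595 was the member called in each line, and 1 neighbour, ZNF718, was called besides it in NOMO1 with DAC. ZNF595 is left out of the following counts, since it was chosen for its rise with GSK032 at this dose on day 4. With GSK032, 0 of 4 tested neighbours were called in each line. Of all genes tested, 8.22% were called higher in MV411, 3.29% in THP1 and 4.25% in NOMO1. With DAC 0 of 4 were called in MV411 and in THP1 and 1 of 4 in NOMO1. There 7.03%, 7.26% and 14.9% of all genes were called higher. The fifth neighbour, ZNF732, did not reach 1 FPKM in any library and was not tested. On day 1 the shares of all genes called higher were 0.136%, 0.0129% and 0.0241% with GSK032 and 0.404%, 0.116% and 0.38% with DAC, for MV411, THP1 and NOMO1. On day 2 they were 1.73%, 0.336% and 0.352% with GSK032 and 2.46%, 1.15% and 3.55% with DAC.

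**Figure D1:**
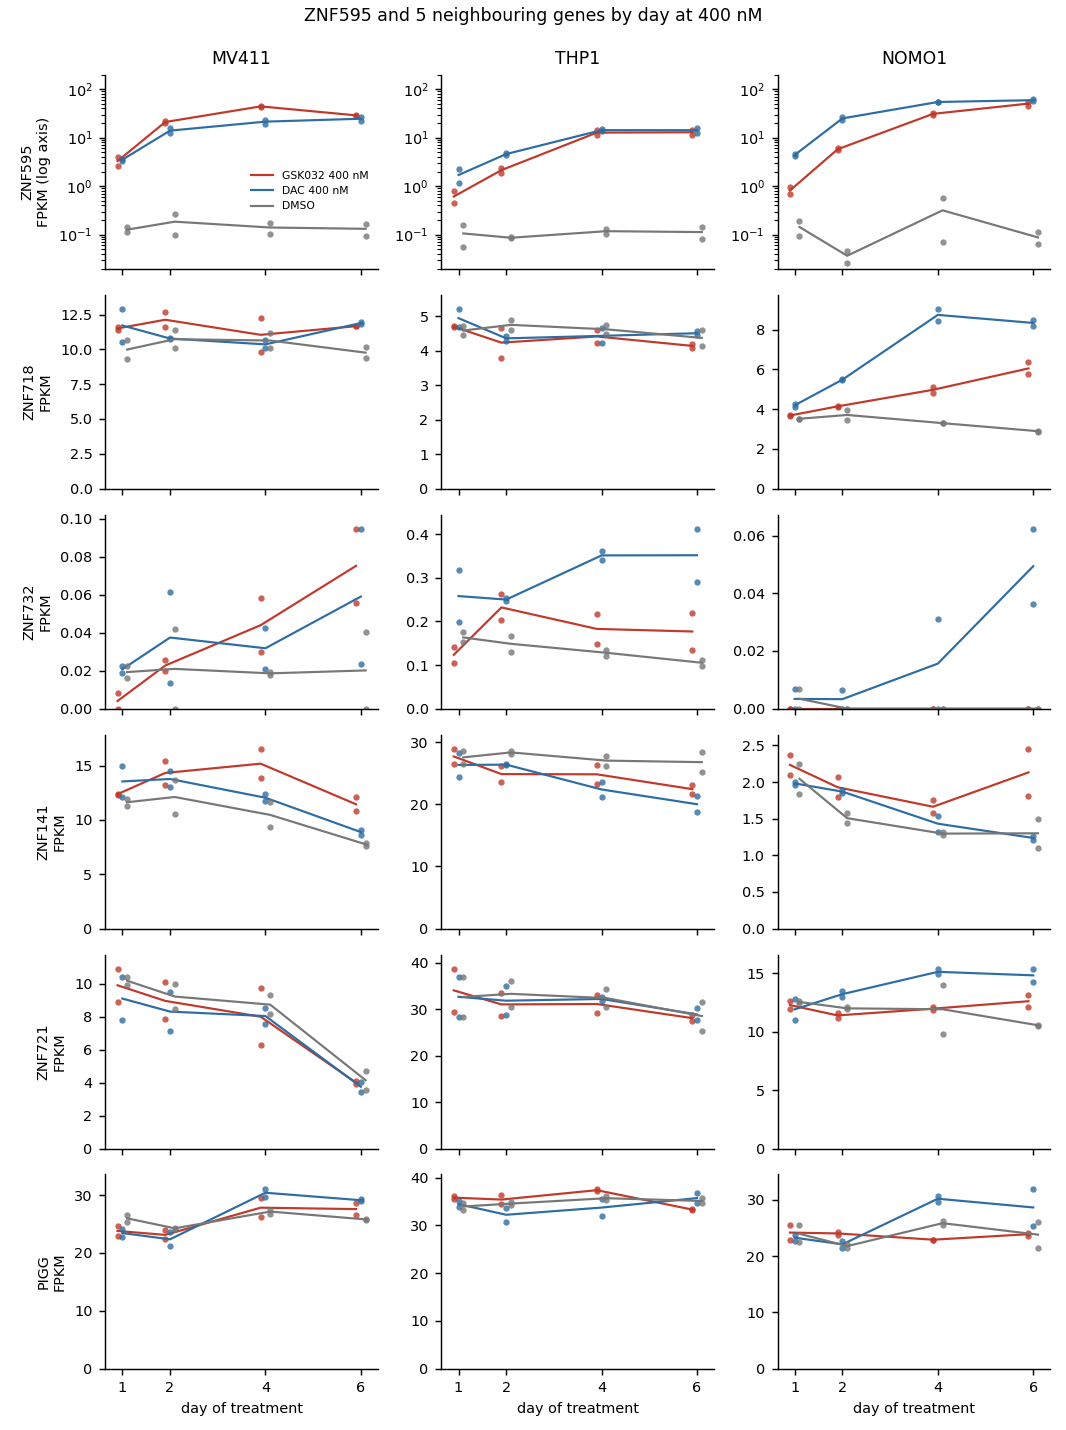
FPKM of the 6 genes (rows) by day of treatment in the 3 lines (columns), with GSK032 400 nM in red, DAC 400 nM in blue and DMSO in grey. Points are libraries and lines join group means (2 libraries each). The ZNF595 axis is logarithmic and the others begin at 0. ZNF595 climbs in every line, ZNF718 reaches 8.48 and 8.21 FPKM with DAC on day 6 of NOMO1 against 2.86 and 2.92 with DMSO, and ZNF721 is low on day 6 of MV411 in all 3 treatments.

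The response was larger at day 6 than at day 1 with both compounds in each line. The difference of the 2 effects, which uses no library of day 4, was called for ZNF595 in all 6 cases, at 2.63 to 5.40 on the log2 scale. It was called for 1 tested neighbour, ZNF718, in NOMO1 with DAC (1.158), and its value there with GSK032 was 0.89. Of all genes tested it was called higher for 7.4%, 2.73% and 3.51% with GSK032 and 5.35%, 6.04% and 12.5% with DAC, in MV411, THP1 and NOMO1. ZNF595 was chosen for its rise on day 4, so a late effect above that of day 1 was favoured by the choice. Its calls here are therefore not independent support for a growing response.

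The dose series of day 4 described ZNF595 as a gene with a steep onset between adjacent doses, at a dose that differed by line and agent. With 3.2, 16, 80, 400, 2000 and 10000 nM GSK032, its mean in MV411 was 0.261, 0.244, 21.6, 44.1, 49.0 and 45.4 FPKM. In THP1 it was 0.0973, 0.606, 1.37, 12.7, 21.4 and 24.5, and in NOMO1 0.172, 0.0893, 0.248, 30.9, 97.5 and 121 FPKM. As a ratio of means, the largest step lay between 16 and 80 nM in MV411 and between 80 and 400 nM in THP1 and NOMO1. In NOMO1 the libraries at 10000 nM reached 114 and 129 FPKM, above the DMSO levels of PIGG. The 16 nM libraries of THP1 were uneven, at 1.04 and 0.167 FPKM.

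With DAC the same series peaked and came down again. At the same 6 doses ZNF595 averaged 0.216, 0.658, 12.3, 21.4, 12.0 and 4.03 FPKM in MV411. In THP1 the means were 0.147, 0.376, 7.68, 14.3, 11.4 and 5.88, and in NOMO1 0.423, 4.57, 58.7, 54.3, 20.2 and 6.99 FPKM. The highest mean was at 400 nM in MV411 and THP1 and at 80 nM in NOMO1. The log2 changes against DMSO at 10000 nM were 6.16, 5.33 and 7.28 with GSK032 and 2.82, 3.37 and 3.26 with DAC, in MV411, THP1 and NOMO1.

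**Figure D2:**
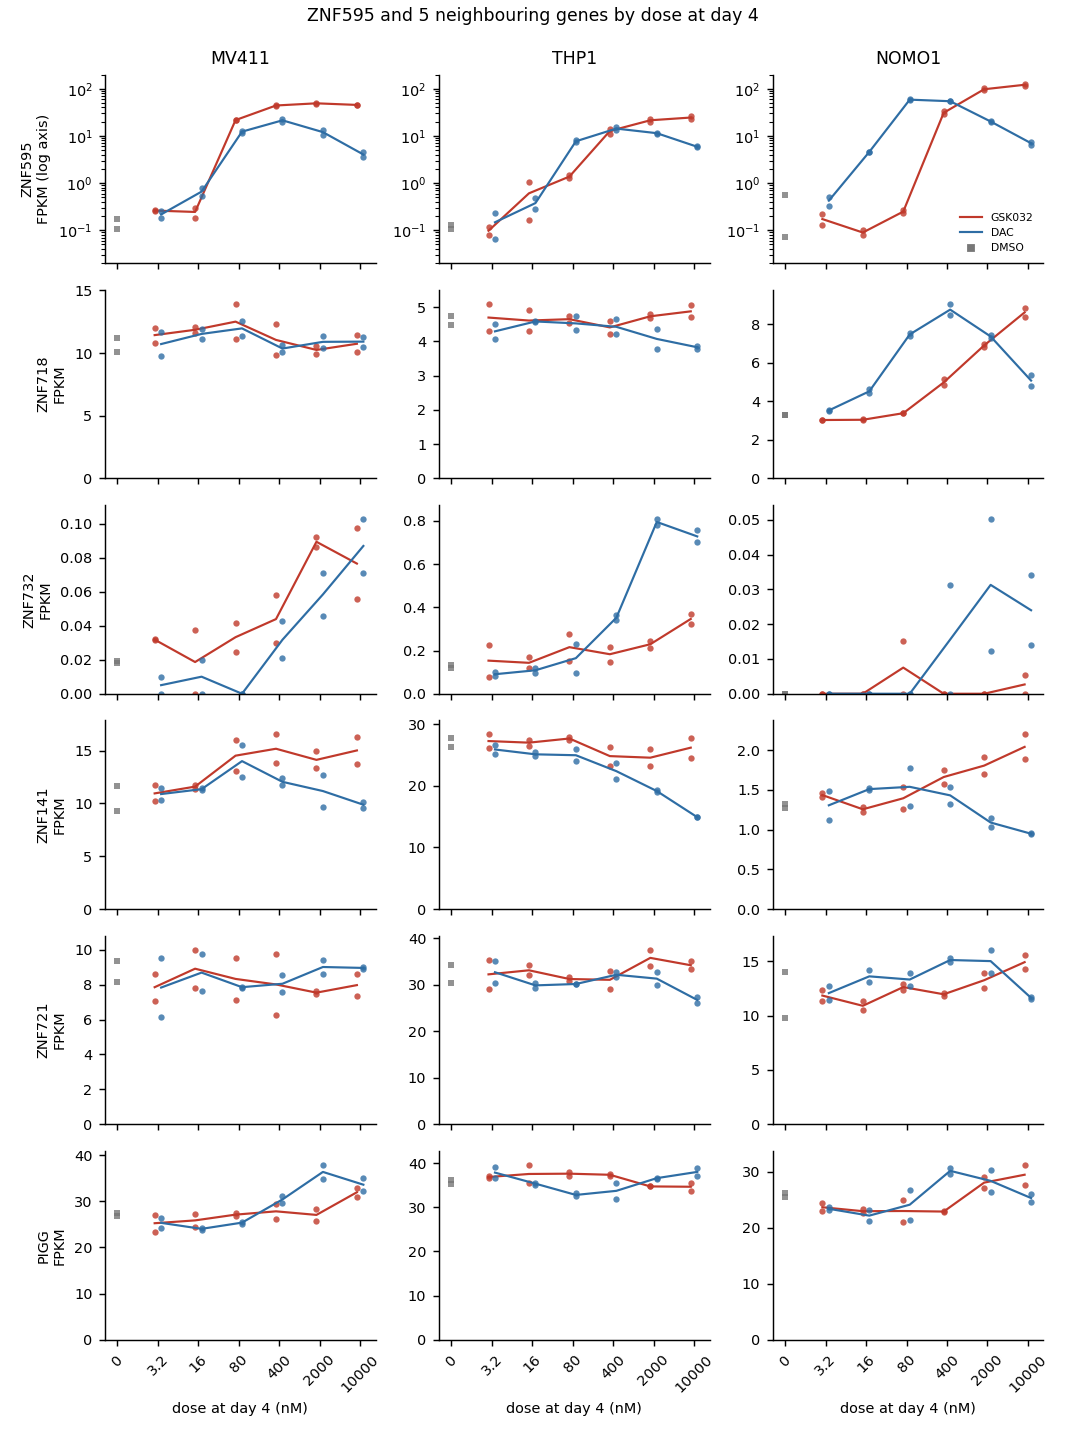
FPKM of the 6 genes (rows) by dose on day 4 in the 3 lines (columns), with GSK032 in red, DAC in blue and DMSO as grey squares at dose 0. Points are libraries, lines join means of 2 libraries, doses are equally spaced, and the ZNF595 axis is logarithmic. With GSK032, ZNF595 stays high up to 10000 nM, where it averages 45.4, 24.5 and 121 FPKM, while with DAC it comes down to 4.03, 5.88 and 6.99 FPKM. ZNF718 in NOMO1 climbs to 8.61 FPKM with GSK032, and with DAC it peaks at 8.75 FPKM at 400 nM.

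At matched doses, ZNF595 was higher with GSK032 than with DAC at 10000 nM in all 3 lines, and lower at 80 nM in THP1 and NOMO1. At 10000 nM ZNF595 was higher with GSK032 than with DAC by 3.35 (MV411, adjusted p = 7.53e-15), 1.97 (THP1, 1.22e-07) and 4.02 (NOMO1, 1.05e-17) on the log2 scale. Of all genes tested, 5.68%, 4.07% and 6.07% were called higher in that comparison. At 2000 nM it was called higher in MV411 (1.99) and NOMO1 (2.24), against 3.81% and 4.46% of all genes, and had a difference of 0.88 in THP1, where 2.73% were called. At 80 nM the order turned in THP1 and NOMO1, where the differences were -2.13 (adjusted p = 4.5e-07) and -6.31 (1.42e-21), against 0.96% and 5.42% of all genes. In NOMO1 it was also lower at 16 nM (-3.11, adjusted p = 1.88e-13), against 0.891% of all genes. At 16 nM the differences were -0.63 in MV411 and 0.22 in THP1, and at 3.2 nM they were 0.09, -0.11 and -0.45 in MV411, THP1 and NOMO1, none of them called. In NOMO1 the 80 nM libraries had 0.266 and 0.230 FPKM with GSK032 and 56.9 and 60.5 with DAC. In MV411 the 80 nM difference was 0.79, and it passed the minimum fold, at 1.09, with libraries rescaled to equal sums.

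Over time at 400 nM a difference between the compounds was called in NOMO1 on days 1 and 2. In that line ZNF595 was lower with GSK032 than with DAC on day 1 (-1.90, adjusted p = 2.93e-08) and day 2 (-2.02, 5.82e-10), where 0.159% and 2.15% of all genes were called lower. In MV411 the differences on those days were -0.10 and 0.58, and in THP1 -0.96 and -0.95, none of them called. On day 4, given with no test, the differences were 1.03 in MV411, -0.17 in THP1 and -0.81 in NOMO1. On day 6 MV411 had a difference of 0.23 (95% interval -0.13 to 0.59), THP1 of -0.14 (-0.64 to 0.36) and NOMO1 of -0.24 (-0.58 to 0.11), with adjusted p = 0.598, 0.775 and 0.263. Of all genes tested, 2.27%, 3.09% and 17.6% were called in either direction in that comparison.

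Of the further agents, GSK862 raised ZNF595 and GSK477 did not measurably do so. On day 2 of GSK862 at 1000 nM the MV411 libraries had 13.1 and 18.0 FPKM, against 0.101 and 0.270 with DMSO. The THP1 libraries had 1.04 and 1.18, against 0.0853 and 0.0875 with DMSO, and those of NOMO1 4.90 and 6.26, against 0.0470 and 0.0266 with DMSO. None overlapped with DMSO. The log2 changes against DMSO were 4.54, 1.45 and 3.49 (adjusted p = 4.56e-17, 0.000756 and 3.51e-14), where 1.35%, 0.207% and 0.376% of all genes were called higher. The THP1 change was 0.96 with a pseudocount of 1, and 1.28 (adjusted p = 0.16) with libraries rescaled to equal sums, and was not called in either case. On day 4 the group means were 35.0, 8.41 and 26.4 FPKM, beside 44.1, 12.7 and 30.9 with GSK032 at 400 nM. These are different doses, so no test was made.

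With GSK477 at 10000 nM, ZNF595 had means of 0.149, 0.102 and 0.0833 FPKM on day 4, within the range of DMSO libraries. Against DMSO on day 2, MV411 had a log2 change of 0.23 (95% interval -0.13 to 0.59), THP1 of 0.00 (-0.50 to 0.50) and NOMO1 of 0.23 (-0.11 to 0.58), with 0.0136%, 0.0129% and 0.0337% of all genes called higher. The highest GSK477 library, at 0.479 FPKM, was 1 of the 2 of day 2 in MV411. Set directly against GSK477 at the same dose and day, ZNF595 was higher with GSK032 by 6.14, 5.37 and 7.70 and with DAC by 2.80, 3.41 and 3.68, all of them called, where 12.3%, 5.24% and 8.26% of all genes were called higher with GSK032 and 12.3%, 11.3% and 15.1% with DAC.

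**Figure D3:**
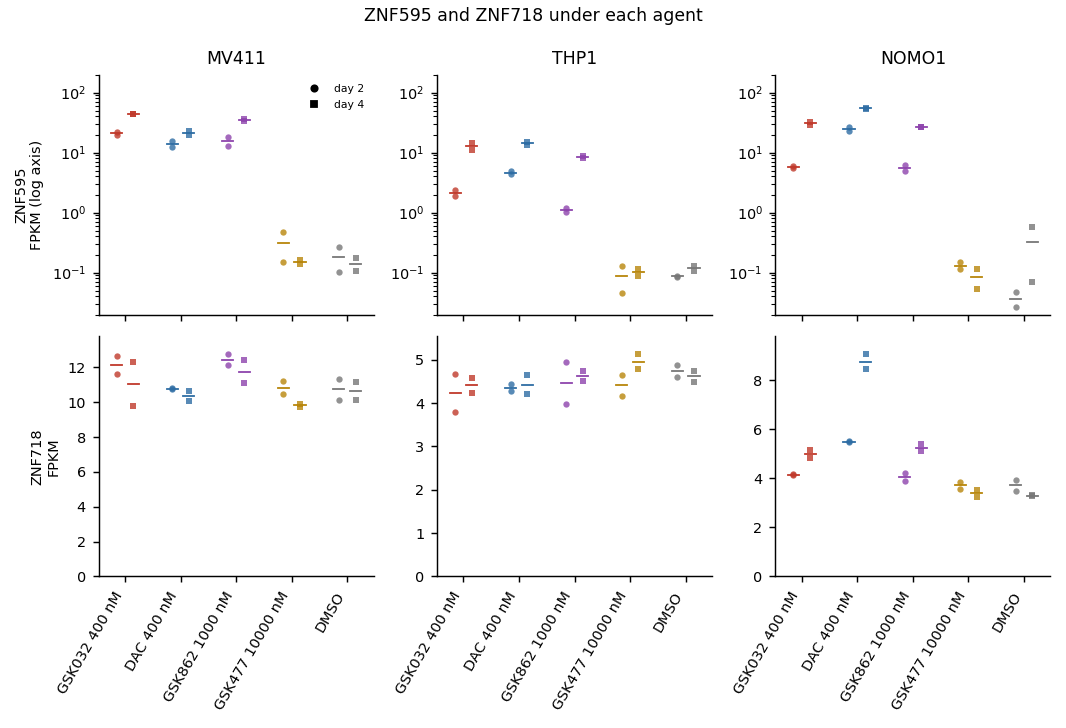
FPKM of ZNF595 (upper row, logarithmic axis) and ZNF718 (lower row) on day 2 (circles) and day 4 (squares) under each agent, with a bar at the mean of 2 libraries. GSK032, DAC and GSK862 lift ZNF595 in every line, whereas GSK477 libraries stay at 0.479 FPKM or less. ZNF718 leaves the DMSO level in NOMO1, most with DAC on day 4 (8.45 and 9.05 FPKM).

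ZNF718, the next gene toward the centromere, was already expressed in DMSO and rose in NOMO1, most with DAC, while it was not called in MV411 or THP1. In NOMO1 on day 4 it had 5.14 and 4.82 FPKM with GSK032 and 8.45 and 9.05 with DAC, against 3.29 and 3.31 with DMSO. On day 6 it had 6.35 and 5.75 with GSK032 and 8.48 and 8.21 with DAC, against 2.86 and 2.92 with DMSO. The treated libraries of both days lay above all 8 DMSO libraries, whose highest value was 3.94. The log2 changes with DAC were 0.22, 0.51, 1.28 and 1.38 on days 1, 2, 4 and 6 (SE 0.06), the last 2 called with adjusted p = 1.06e-16 and 1.05e-17. With GSK032 they were 0.06, 0.14, 0.53 and 0.95. The day 6 change with GSK032 had adjusted p = 4.64e-13 but missed the minimum fold, which it passed without the second GSK032 library of that day, at 1.016, and with equal sums or a pseudocount of 0.1, at 1.03 and 1.04.

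Its dose series in NOMO1 stayed near DMSO up to 80 nM GSK032 and climbed from 400 nM on, while with DAC it peaked at 400 nM. With GSK032 from 3.2 to 10000 nM, ZNF718 averaged 3.03, 3.04, 3.38, 4.98, 6.90 and 8.61 FPKM, against 3.30 with DMSO. With DAC it averaged 3.53, 4.52, 7.46, 8.75, 7.36 and 5.07 FPKM. It was called higher with GSK032 at 10000 nM (1.26) and with DAC at 80 nM (1.07), 400 nM (1.28) and 2000 nM (1.05), where 9.21%, 6.51%, 13.2% and 15.4% of all genes were called higher. The calls at 80 and 2000 nM DAC were lost with a pseudocount of 1, at 0.98 and 0.96. With GSK032 at 2000 nM the change was 0.96, and it passed the minimum fold with a pseudocount of 0.1 (1.04), with equal sums (1.018) and by median ratio (1.03). GSK862 on day 4 gave a mean of 5.24 FPKM and a change of 0.60, and GSK477 a mean of 3.38 FPKM and a change of 0.03.

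Between compounds, ZNF718 in NOMO1 was lower with GSK032 than with DAC at 80 nM (-1.04, adjusted p = 5.92e-14), and the difference was -0.43 on day 6 at 400 nM (5.33e-07) and 0.71 at 10000 nM (5.37e-11), both under the minimum fold. The 80 nM call was lost with a pseudocount of 1, at -0.95. Set against GSK477 at 10000 nM it was called higher with GSK032 (1.23), and the difference with DAC was 0.52. In MV411 and THP1 the changes were small. Over the 22 comparisons against DMSO its changes lay between -0.11 and 0.27 in MV411 and between -0.24 and 0.10 in THP1, with no call. In MV411 on day 6 it had 11.7 and 11.7 FPKM with GSK032 and 11.9 and 11.8 with DAC, against 10.2 and 9.37 with DMSO, while ZNF595 had at least 22.1 FPKM in each of these treated libraries. Whether the lines differ in ZNF718 was not tested.

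Taking the 4 tested neighbours over the 22 comparisons against DMSO, 0 of 88 tests were called higher in MV411, 0 of 88 in THP1 and 5 of 88 in NOMO1, all 5 of them ZNF718, and none was called lower. Over the same comparisons 3.78%, 2.42% and 4.39% of all tests were called higher and 2.44%, 1% and 1.92% lower. The 88 tests of a line are only 4 genes repeated over 22 comparisons. These shares therefore cannot show whether the neighbours differ from other genes, which was not tested. The comparisons of a day share their DMSO libraries.

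ZNF141, which lies between ZNF732 and ZNF721 and whose promoter resembles that of ZNF595, had changes below the minimum fold. In MV411 on day 6 it had 10.8 and 12.1 FPKM with GSK032 and 8.65 and 9.12 with DAC, against 7.61 and 7.92 with DMSO. The change with GSK032 was 0.53 ± 0.14 (SE; adjusted p = 0.0027), and on day 4 it was 0.52 (0.00379). In NOMO1, where the gene was scarce, it had 2.45 and 1.81 FPKM with GSK032 and 1.26 and 1.21 with DAC on day 6, against 1.103 and 1.498 with DMSO, a change of 0.55 with GSK032 (0.00107). In THP1, the line with the highest ZNF141 level, the changes with high doses of DAC were negative. At 10000 nM DAC on day 4 it had 14.9 and 14.9 FPKM, against 27.8 and 26.2 with DMSO, a change of -0.84 ± 0.08 (adjusted p = 1.01e-09), and the change at 2000 nM was -0.49. That value at 10000 nM passed the minimum fold, at -1.11, with libraries rescaled to equal sums.

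At 10000 nM on day 4, ZNF141 differed between the compounds in the same direction in all 3 lines. It had 13.8 and 16.3 FPKM with GSK032 and 9.60 and 10.2 with DAC in MV411. In THP1 it had 27.8 and 24.6 with GSK032 and 14.9 and 14.9 with DAC, and in NOMO1 1.88 and 2.20 with GSK032 and 0.945 and 0.951 with DAC. The differences were 0.58, 0.79 and 0.81 on the log2 scale (adjusted p = 0.00129, 6.27e-09 and 2.86e-06), under the minimum fold. With equal sums that of MV411 passed it, at 1.19, and with a pseudocount of 0.1 that of NOMO1, at 1.03. The libraries did not overlap in any line.

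ZNF721, a further zinc finger gene, and PIGG were not called in any comparison against DMSO. Changes of ZNF721 lay between -0.20 and 0.04 in MV411, between -0.27 and 0.14 in THP1 and between -0.10 and 0.47 in NOMO1. The upper end was DAC on day 6 in NOMO1, with 14.3 and 15.4 FPKM with DAC against 10.5 and 10.6 with DMSO (adjusted p = 0.00347). In MV411 the gene was low on day 6 whatever the treatment, with 4.09 and 3.92 FPKM with GSK032, 3.45 and 4.06 with DAC and 4.72 and 3.58 with DMSO, where DMSO of day 1 had 9.96 and 10.4. That difference between days was not tested.

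PIGG, the farthest of the 6 from the chromosome end, had differences between -0.17 and 0.41 in MV411, between -0.12 and 0.09 in THP1 and between -0.22 and 0.26 in NOMO1. The largest was with 2000 nM DAC in MV411, with 34.9 and 37.9 FPKM against 26.8 and 27.5 with DMSO (0.41 ± 0.09, adjusted p = 0.000195). Those libraries did not overlap, but the change stayed below the minimum fold.

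ZNF732 was at or near 0 in every library of MV411 and NOMO1. Its highest values were 0.103, 0.808 and 0.0623 FPKM in MV411, THP1 and NOMO1, and it was listed at 0 in 10, 0 and 40 of the 52 libraries. In THP1 it was higher with DAC on day 4, at 0.341 and 0.362 FPKM with 400 nM, 0.782 and 0.808 with 2000 nM and 0.701 and 0.756 with 10000 nM, against 0.121 and 0.135 with DMSO. With no filter on low values the change at 2000 nM was 1.04 ± 0.11 (adjusted p = 8.59e-09), the only call of this gene. GSK032 at 10000 nM gave 0.368 and 0.324 FPKM, also above DMSO. Of the 31-base stretches in its transcripts 8.45% occur in ZNF721, which was at 26.2 to 32.8 FPKM in the 400 to 10000 nM DAC libraries of that day. The part of shared sequence in these low values was not tested.

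Widening the view to the first 1000 kb of the chromosome, 34 further genes are annotated, of which 17 passed the filter on low values in MV411, 19 in THP1 and 15 in NOMO1. On day 6, 0 were called in MV411 with either compound, 0 in THP1 with GSK032 and 2 higher with DAC, and in NOMO1 2 higher with GSK032 and 1 higher and 1 lower with DAC. The 2 higher calls were 10.5% of the tested genes in THP1 with DAC, against 7.26% of all genes, and 13.3% in NOMO1 with GSK032, against 4.25%. With DAC in NOMO1 1 gene was 6.67%, against 14.9% of all genes higher and 9.75% lower. With a pseudocount of 0.1 there were 2 higher and 1 lower in MV411 and 1 higher in THP1 with GSK032, and 1 lower in MV411 with DAC. With a pseudocount of 1, NOMO1 with GSK032 had 1 higher. Their median change was 0.10, 0.14 and 0.02 with GSK032 and 0.11, 0.12 and 0.09 with DAC in MV411, THP1 and NOMO1, where the median of all genes was 0.00. No further protein-coding gene of this stretch was called in 2 lines.

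The following genes were chosen after their values were seen. ZNF876P, a zinc finger pseudogene between ZNF718 and ZNF732, was called higher in NOMO1 on day 6. It had 1.98 and 1.70 FPKM with GSK032 and 3.90 and 3.61 with DAC, against 0.729 and 0.591 with DMSO, changes of 1.01 (adjusted p = 0.000107) and 1.88 (7.01e-10). In MV411 it had 2.06 and 1.84 FPKM with GSK032 on that day, against 0.941 and 0.663 with DMSO. In THP1 it had 1.15 and 1.01, against 0.568 and 0.566 with DMSO. The libraries did not overlap in either line, but its changes with GSK032 there were 0.92 and 0.57, neither called. ZNF595 shares 2.80% of its 31-base stretches with it, and the part of shared sequence was not tested. BNIP3P41, a pseudogene on the telomere side of ZNF595, was called higher in NOMO1 with GSK032 (1.37, mean 3.78 against 1.19 FPKM with DMSO). DGKQ, which encodes a diacylglycerol kinase, and the pseudogene AC079140.4 were called higher in THP1 with DAC (1.15 and 1.46). ATP5ME, a subunit of ATP synthase, was called lower in NOMO1 with DAC (-1.61, mean 225 against 683 FPKM with DMSO).

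**Figure D4:**
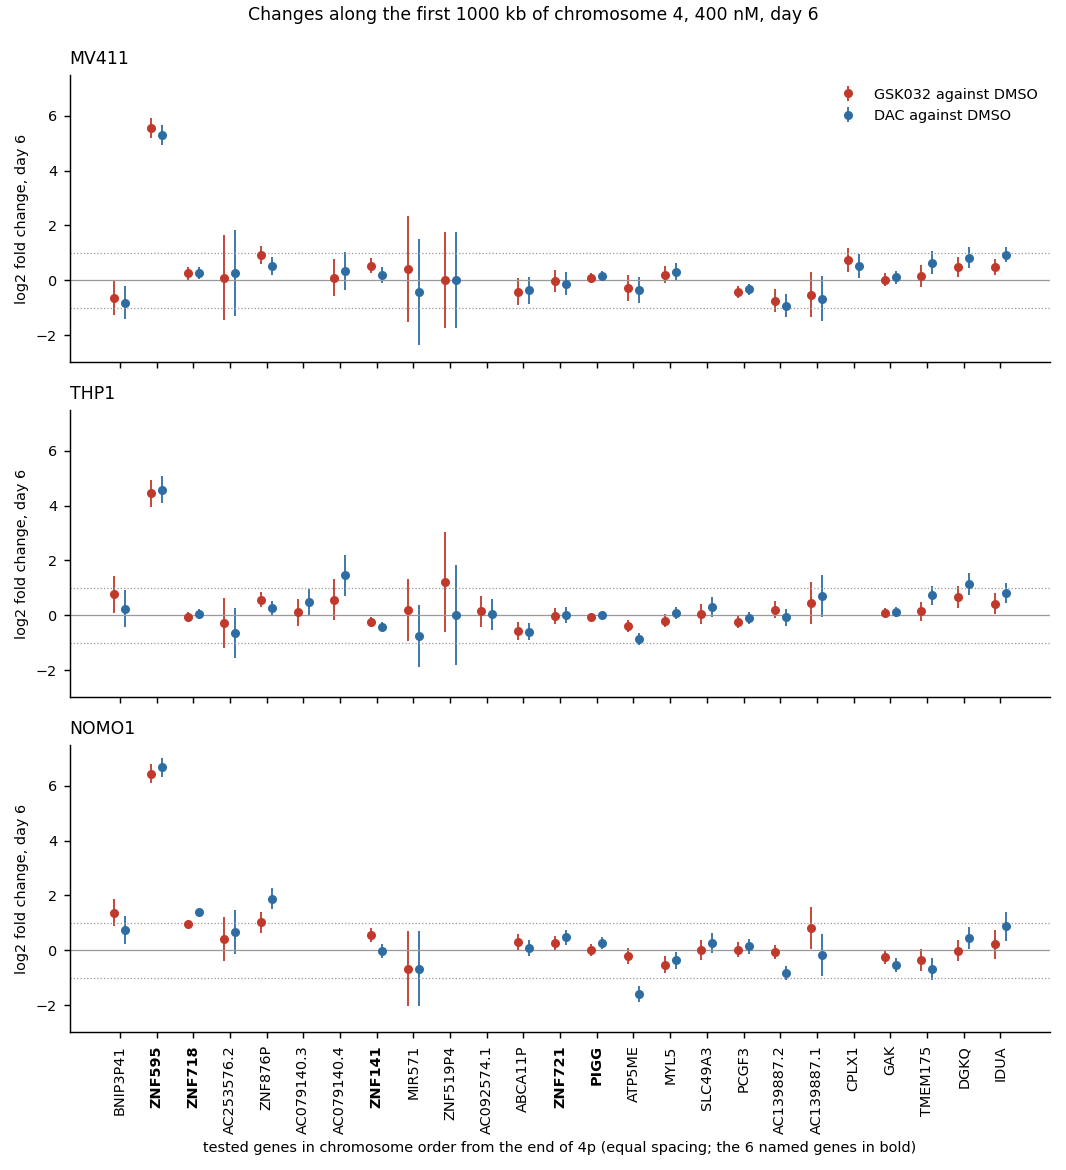
Log2 change on day 6 at 400 nM for each tested gene of the first 1000 kb of chromosome 4, in chromosome order with equal spacing, for GSK032 (red) and DAC (blue) against DMSO. Points are the difference of means of 2 libraries on the log2(FPKM + 0.5) scale, bars are 95% intervals, and dotted lines mark the minimum change of 1. ZNF595 stands at 5.54, 4.44 and 6.43 with GSK032, and in NOMO1 ZNF718 and ZNF876P stand at 1.38 and 1.88 with DAC.

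Zinc finger genes elsewhere in the genome were called higher in a larger share than all genes in MV411 and in a smaller share in THP1 and NOMO1 at the pseudocount of 0.5, and these differences were not tested. Of 508 other protein-coding genes with a ZNF name, 447, 459 and 405 were tested in MV411, THP1 and NOMO1. All genes tested also include noncoding genes and pseudogenes, which this list leaves out. With GSK032 on day 6 of MV411, 62 (13.9%) were called higher and 4 (0.895%) lower, where all genes gave 8.22% and 4.23%. In THP1 6 (1.31%) were higher and 1 (0.218%) was lower, against 3.29% and 0.788% of all genes. In NOMO1 5 (1.23%) were higher and 1 (0.247%) was lower, against 4.25% and 0.987% of all genes. The median changes of the list were 0.21, 0.02 and 0.11 in these lines. With DAC 51 (11.4%) were higher and 2 lower in MV411, against 7.03% and 3.9% of all genes. In THP1 13 (2.83%) were higher and 2 lower, against 7.26% and 3.84%, and in NOMO1 35 (8.64%) were higher and 8 lower, against 14.9% and 9.75%. The medians with DAC were 0.24, 0.08 and 0.05, that of all genes was 0.00 in each case, and the THP1 value turned to -0.02 with libraries rescaled to equal sums.

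The counts of higher ZNF genes also moved with the pseudocount. With GSK032 in NOMO1 there were 18 with a pseudocount of 0.1 and 1 with a pseudocount of 1, and in THP1 there were 10 and 3. With DAC there were 20 in THP1 with a pseudocount of 0.1 or by median ratio, and 23 in NOMO1 with a pseudocount of 1.

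The share of higher against lower calls moved with the scaling of libraries. For ZNF genes with DAC in NOMO1, the calls were 52 and 2 with equal sums and 46 and 3 with scaling by median ratio. With GSK032 they were 6 and 0 in THP1 under each scaling, and 5 and 0 in NOMO1 with equal sums. All genes with DAC gave 1547 higher and 859 lower in MV411, against 1166 and 1139 with equal sums. In THP1 they gave 1686 and 891, against 1419 and 1173 with equal sums and 2055 and 503 by median ratio. In NOMO1 they gave 3089 and 2025, against 3993 and 1122 and 3769 and 1339.

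Protein-coding genes near any chromosome end were called in both directions. Their shares were not tested against those of all genes, which include noncoding ones. Of 312 protein-coding genes within 500 kb of an end, without the 6 members, 226, 222 and 232 were tested in MV411, THP1 and NOMO1. The far end of a chromosome was taken as the end of its last annotated gene. On day 6 with GSK032, 22 (9.73%) were called higher and 14 (6.19%) lower in MV411, against 8.22% and 4.23% of all genes. In THP1 11 (4.95%) were higher and 3 (1.35%) lower, against 3.29% and 0.788%, and in NOMO1 13 (5.6%) were higher and 2 (0.862%) lower, against 4.25% and 0.987%. With DAC 21 (9.29%) were higher and 12 (5.31%) lower in MV411, against 7.03% and 3.9% of all genes. In THP1 22 (9.91%) were higher and 10 (4.5%) lower, against 7.26% and 3.84%, and in NOMO1 34 (14.7%) were higher and 24 (10.3%) lower, against 14.9% and 9.75%. With a pseudocount of 0.1, 18 were higher in THP1 and 20 in NOMO1 with GSK032. With equal sums the DAC calls were 14 and 13, 19 and 12, and 45 and 14, and by median ratio 24 and 9, 24 and 4, and 42 and 15, for the same lines. The medians of the list were 0.01, -0.02 and -0.06 with GSK032 and 0.01, 0.00 and -0.15 with DAC, and that of NOMO1 with DAC was 0.15 with equal sums and 0.06 by median ratio.

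Among the genes of the machinery around the members, CBX5 and TRIM28 of the cofactors were called on day 6. So were PIGA, PIGU, DPM3 and PIGW of the GPI pathway. All of these calls were lower with the deposited scaling. Of 11 cofactors of KRAB zinc finger proteins, all tested, CBX5, a heterochromatin protein, was called lower in MV411 with GSK032 (-1.28) and DAC (-1.23) and in THP1 with DAC (-1.02). That is 1 gene or 9.09% of the list in each case, against 4.23%, 3.9% and 3.84% of all genes called lower. In MV411 it averaged 18.9 ± 2.0 FPKM with GSK032 and 19.5 ± 0.8 with DAC, against 46.8 ± 8.3 with DMSO (SD, n = 2 each). TRIM28, the corepressor itself, was called lower in NOMO1 with DAC (-1.08, adjusted p = 9.37e-10), at 103 ± 10 FPKM against 219 ± 18 with DMSO, where 9.75% of all genes were called lower. The THP1 call of CBX5 was lost with scaling by median ratio, and the TRIM28 call with either scaling. With equal sums, 1 cofactor was called higher and 0 lower in NOMO1 with DAC. The cofactors had medians of -0.13, -0.27 and -0.06 with GSK032 and -0.17, -0.49 and -0.47 with DAC, and that of NOMO1 with GSK032 was 0.03 with equal sums.

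The GPI anchor pathway, to which PIGG belongs, was represented by 27 other genes, all tested. On day 6, 1 was called lower in MV411 with GSK032 and 3 in NOMO1 with DAC, and none in the other line and compound pairs. These were 3.7% and 11.1% of the list, against 4.23% and 9.75% of all genes called lower. PIGA, part of the enzyme of the first step, was the MV411 gene, at 4.58 ± 0.20 FPKM with GSK032 against 10.2 ± 0.9 with DMSO (-1.08), and its call was lost with scaling by median ratio. In NOMO1 PIGU, a subunit of the transamidase that attaches the anchor, had 5.46 ± 0.45 FPKM with DAC against 22.5 ± 0.3 with DMSO (-1.95, adjusted p = 3.14e-16). DPM3, part of the dolichol-phosphate-mannose synthase, changed by -1.82, and PIGW, which acylates the inositol, by -1.17. Only 2 of the 3 calls were made under each scaling. The medians of the list were -0.09, -0.19 and -0.08 with GSK032 and 0.03, -0.32 and -0.31 with DAC.

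The genes whose pattern over the 26 group means was most like that of ZNF595, by the lowest Pearson correlation of log2(FPKM + 0.5) in the 3 lines among 16540 genes, lay mostly outside chromosome 4. PNMA5 had a lowest r of 0.98, DCAF4L1, itself on chromosome 4, 0.96, MAGEA4 0.95, ST8SIA6-AS1 0.93 and RHOXF2 0.92. PNMA5, MAGEA4 and RHOXF2 are on the X chromosome, and MAGEA4 belongs to a family expressed in testis and tumours. The group means share treatments and DMSO libraries, so these values describe likeness only. On day 6 PNMA5 averaged 81.3 FPKM with GSK032 and 45.9 with DAC, against 0.235 with DMSO in MV411. MAGEA4 averaged 275 with GSK032 and 161 with DAC, against 1.91 with DMSO, in the same line.

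Among the neighbours, ZNF718 in NOMO1 came nearest to ZNF595. Its r was 0.38 in MV411, -0.24 in THP1 and 0.93 in NOMO1. ZNF141 had 0.59, -0.54 and 0.17, ZNF721 -0.18, -0.10 and 0.61, and PIGG 0.30, -0.14 and 0.58. By the lowest value of the 3 lines, PIGG ranked 5531, ZNF721 5931, ZNF718 6597 and ZNF141 9964 of the 16540 genes.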

How the data were processed

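RNA of MV411, THP1 and NOMO1 cells was sequenced in 52 libraries a line, 2 for each of 26 groups. The authors deposited a table of FPKM values per line. The submitters' processing notes name hg38, Salmon 0.12.0 and DESeq2, and how FPKM came from them is not given in the sources used here. The authors' tables of log2 fold changes were not used, since their headers repeat. Names and positions come from GENCODE 29, which holds 56511 of the 59939 identifiers.

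A limma 3.58.1 model (R 4.3.3) was run for every line separately. Its input was log2(FPKM + 0.5), taken from the deposited values, with a mean per group, 26 residual degrees of freedom, a variance trend and Benjamini-Hochberg adjustment over all genes of a comparison. The filter kept genes with 2 or more libraries at or above 1 FPKM (MV411 22007, THP1 23226, NOMO1 20763 genes), which a gene nearly silent in DMSO can pass only through its treated libraries. The fit was tested on simulated data. Per line 35 comparisons were made. The shares of all genes are over genes of every type, with noncoding genes and pseudogenes included. The alternatives were pseudocounts of 0.1 and 1, no filter, 2 rescalings of libraries, a replicate block, fits on the groups compared alone, and leaving out libraries.

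The members and gene lists were chosen with earlier results of these data known. Besides the members, the text names protein-coding genes of the first 1000 kb of chromosome 4 called in 2 lines, called members of the cofactor and GPI lists, and the 5 genes most like ZNF595. As no further protein-coding gene met the first of these, the other genes of that stretch were named after their values were seen. Whether replicates were separate cultures is not stated, and p-values therefore reflect the spread between libraries, which may be technical. No 2 libraries were identical. Of the MV411 libraries, 4 carry no replicate number.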

Additional observations from a re-analysis of the deposited data

Results flagged for a closer look

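For ZNF595 the effect of day 6 at 400 nM differed from that of day 1 by a direct test of the difference, and so did that of ZNF718 in NOMO1 with DAC. In MV411 the day 6 change of ZNF595 exceeded the day 1 change by 2.96 ± 0.25 (SE) with GSK032 and by 2.63 ± 0.25 with DAC (limma, adjusted p = 1.76e-10 and 4.09e-09). In THP1 it did so by 3.58 and 2.76 (1.19e-08 and 3.09e-07), and in NOMO1 by 5.40 and 3.74 (6.54e-16 and 2.03e-13). Both treated libraries of day 6 lay above both of day 1 in each of these 6 cases. The choice of ZNF595 for its day 4 rise favoured a late effect, so its p-values are not independent support. The value of ZNF718 in NOMO1 was 1.158 ± 0.09 with DAC (adjusted p = 4.9e-12).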

How the results depend on the processing

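No called value of a member changed sign under any alternative, and 342 of the recomputed counts and main values kept their call or stayed within 1.5 times. There were 10 exceptions. In THP1 the calls under GSK862 and GSK477 numbered 0, against 1, with a pseudocount of 1 and with equal sums. The neighbours called in the THP1 dose series numbered 1, against 0, with no filter (ZNF732) and with equal sums (ZNF141). In NOMO1 the members called with GSK032 on day 6 numbered 2, against 1, with a pseudocount of 0.1 and with equal sums, and 1 to 2 when a library was left out. Calls in the NOMO1 dose series numbered 2, against 4, with a pseudocount of 1. The day 6 difference of ZNF595 between GSK032 and DAC in NOMO1, -0.24, was -0.45 with equal sums and -0.41 by median ratio (limma, adjusted p = 0.079 and 0.0441), and -0.37 to -0.10 when a library was left out. The cause of these shifts was not tested. Scaling moved the median of all genes by over 0.1 in several comparisons at 400 nM. On day 6 it came to 0.21 with equal sums and 0.14 by median ratio for DAC in NOMO1, where ZNF718 was at 1.67 and 1.59.

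Deviations of same-numbered replicates had a median correlation of 0.080, 0.081 and 0.088 over pairs of groups in MV411, THP1 and NOMO1. It was over 0.1 in 36.6%, 28.6% and 34.5% of the pairs, and reached 0.417, 0.220 and 0.233. Replicates of the same number thus deviated together in part, which the main fit does not take into account. The replicate block left the counts of members and neighbours called within 1.5 times, and ZNF595 on day 6 stayed at 5.54, 4.44 and 6.43 with GSK032. Depth is unknown, and levels near 0, as for ZNF732, carry the least information.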
